A study of Rattus norvegicus with 16 samples.

Results

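Vehicle was set against a nonsteroidal androgen receptor agonist, called NARA by the submitters, after 48 h in rat cells labelled levator ani muscle satellite cells. The cells were at passage 5, and both groups were kept in growth medium in which charcoal-stripped serum (10%) took the place of fetal bovine serum. The vehicle group received 0.2% DMSO and the NARA group 10 nM of the agonist. The comparison used 7 of the 16 arrays of the series, NARA replicates 1 to 4 and vehicle replicates 2 to 4, since the authors left vehicle replicate 1 out. Its members were the 20971 of 31042 non-control probe sets whose signal averaged 300 or more on these 7 arrays. They stood for 11302 genes, each read by its brightest probe set. At that minimum Dclk1, a microtubule-binding kinase, lay just inside, with a mean signal of 212.7 in vehicle and 365.6 in NARA, and Fbp1, a gluconeogenic phosphatase, just outside, with 414.8 and 213.8.

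Satellite cells are the stem cells of skeletal muscle, lying between the muscle fibre and its basement membrane and giving rise to myoblasts when the muscle is injured or grows. The androgen receptor is a ligand-activated transcription factor that binds palindromic DNA elements shared with the glucocorticoid receptor. The levator ani is a pelvic muscle known for its dependence on androgens, and charcoal treatment removes steroids from serum.

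The other arrays of the series were a 4 h pair of groups treated in the same way, of which the authors kept 6. Median signals of the 7 arrays lay between 539 and 613, and the arrays correlated with each other at 0.927 to 0.957 over the probe sets, whose values do not count as replicates. The number of arrays limits the precision of every value. Titles give the samples as biological replicates and do not say whether they came from different cultures or animals, so the p-values cover only sample-to-sample spread, part of which may be technical. Markers of the labelled cell type gave a mixed picture: Pax7, Pax3 and Myf5 had no entry in the annotation used here, Myod1, the myoblast determination factor, lay below the minimum at 45.6 ± 38.1 in vehicle (SD, n = 3) and 157 ± 108 in NARA (SD, n = 4), and 15 of 17 satellite cell and myoblast markers on the array reached it. All 20 fibroblast and fibro-adipogenic progenitor markers on the array reached it. So did 8 of 13 liver, 8 of 13 endothelial and 9 of 17 leukocyte markers, so reaching the minimum did not identify a cell type. Median signals in vehicle were 588.7 over the satellite cell list, 386.9 over the liver list and 19820 over the fibroblast list. Summed signals of the satellite cell list lay between 56990 and 63530 in vehicle and between 52370 and 56340 in NARA. Itgb1, the brightest of that list, averaged 37880 in vehicle and 38650 in NARA. Cxcr4 (4923 and 590) and Sdc4 (10610 and 6362) fell, while the median of the list was 588.7 in vehicle and 695.8 in NARA. Sums of the fibroblast list lay between 763100 and 933600 in vehicle and between 822700 and 981900 in NARA. Those of 24 differentiating muscle genes lay between 11400 and 14540 and between 14770 and 16400. Summed signals of smooth muscle, endothelial, leukocyte, adipocyte and liver markers overlapped between the groups. In bulk RNA fewer cells of a type and less RNA per cell cannot be told apart, and the part of cell make-up in the results was not tested.

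NARA changed 586 probe sets at 48 h, 286 higher (1.36% of all tested) and 300 lower (1.43%), which together were 2.79% of those tested. By brightest probe set these were 360 genes (3.19%), with 192 higher (1.7%) and 168 lower (1.49%). The call was an adjusted p below 0.05 from limma, a linear model of log2(signal + 50), and fold changes below are on that scale, which understates the change of dim genes. In each of the 360 genes every NARA array lay on 1 side of every vehicle array, which was so for 16.6% of all genes tested. The median size of the log2 difference of called genes was 0.75; 60 were at least 2-fold higher, 35 at least 2-fold lower, and 14 and 3 passed 4-fold. For 18 of the called genes, 12 higher and 6 lower, the group with less signal had a mean below the minimum of 300. The 4 h arrays entered the estimate of spread, and the number of calls depended on the arrays fitted. With only the 48 h arrays, which also left fewer degrees of freedom, 218 probe sets passed. Without vehicle replicate 3 it was 310 and without replicate 2 it was 322. The cause of these lower counts was not tested. Of the 193 genes named by rule, 74 passed under every alternative in which they were tested, and a gene that passed in all of them is called stable below.

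**Figure D1:**
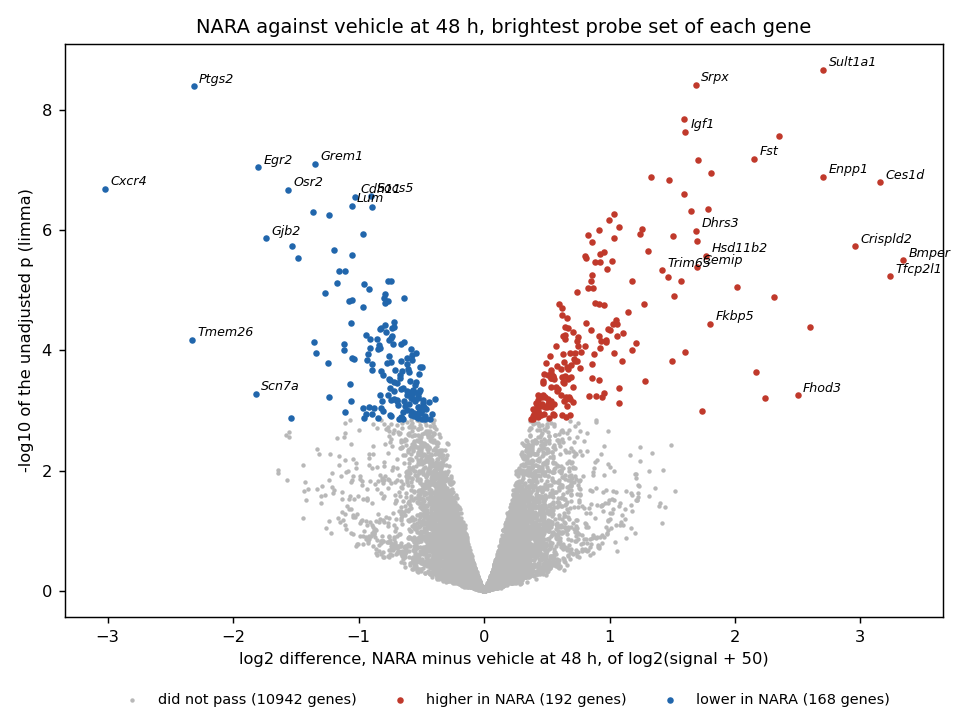
Log2 difference of each gene's brightest probe set, NARA minus vehicle at 48 h, against -log10 of the unadjusted limma p. Red points are the 192 genes that passed higher, blue points the 168 that passed lower and grey points the other genes; 14 red and 3 blue points lie past 4-fold, and 12 red and 6 blue points belong to genes that reached the minimum only through the brighter group.

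The 20 genes with the greatest rise covered secreted regulators, matrix proteins, hydrolases and a transcription factor. Bmper, a secreted protein that binds bone morphogenetic proteins, gave signals of 195, 199 and 269 in vehicle and 1962, 3284, 2642 and 2990 in NARA. As in all called genes the groups did not overlap, and the rise was 10.1-fold (log2 3.34, SE 0.397, adjusted p = 0.000843). Tfcp2l1, a transcription factor of the grainyhead-related family, gave 115, 309 and 176 in vehicle and 1914, 2473, 2265 and 2142 in NARA. All 4 NARA arrays were close to each other and above the 3 vehicle arrays, at 9.42-fold (SE of log2 0.409, adjusted p = 0.00131). Bmper and Tfcp2l1 averaged below the minimum in vehicle and reached it only through the NARA arrays.

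Several genes with large rises code for enzymes. Sult1a1, which sulfates phenols and steroids, went from 2200, 2129 and 1934 to 12209, 13258, 15567 and 14607, 6.51-fold higher (adjusted p = 2.81e-05). Ces1d, a carboxylesterase that cleaves lipid esters, went from 727, 608 and 342 to 5083, 3928, 5749 and 6199, 8.91-fold (adjusted p = 0.000139). In both genes, as in all called genes, the groups did not overlap. Cmbl, a hydrolase of the dienelactone type, read 620.5, 673 and 571 in vehicle and 2463, 2134, 1899 and 2082 in NARA, and Msra, which repairs oxidized methionine, 309.9, 413 and 401 and 1590, 1443, 1095 and 1546. They rose 3.26-fold and 3.45-fold. Hdhd3, a haloacid dehalogenase-like hydrolase, rose 4.04-fold from a dim 273, 115 and 150.4 to 647, 1261, 1012 and 594. Hsd11b2, which inactivates glucocorticoids by oxidizing them, gave 1155, 853 and 1453 in vehicle and 3290, 3996, 4825 and 3928 in NARA, and its 3.42-fold rise (adjusted p = 0.000763) stood beside a fall of Nr3c1, the glucocorticoid receptor, by 0.54 on the log2 scale. All 6 of these rising enzyme genes were stable. The call of Nr3c1 was lost with only the 48 h arrays and with the replicate number fitted as a block. Another, dimmer probe set of Nr3c1 also passed, at -2.04, with mean signals of 661 in vehicle and 140 in NARA.

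Other large rises included those of secreted and adhesion proteins. Crispld2, a secreted glycoprotein, was at 361, 69.4 and 120.5 in vehicle and 1253, 1629, 1535 and 1729 in NARA, with 1 vehicle array above the other 2 and all 3 below NARA (7.76-fold). Enpp1, which makes pyrophosphate, an inhibitor of mineral deposition, was at 728, 469 and 779.7 and 4170, 4738, 3653 and 5558 (6.52-fold). Mfap2, a component of elastic microfibrils, was at 143, 313 and 133 and 1312, 1476, 1333 and 1363 (6.07-fold), and Thsd4, which promotes microfibril assembly, rose 4.72-fold (adjusted p = 0.03). Crispld2 and Mfap2 averaged below the minimum in vehicle and reached it only through the NARA arrays. Dlk2, a membrane protein related to Notch ligands, rose 4.49-fold, although its vehicle arrays were scattered at 167, 674 and 974. Lrrn3, a leucine-rich repeat protein of neurons, rose 3.5-fold, Ctnnal1, a relative of alpha-catenin, 5.09-fold, and Tpd52l1 4.97-fold. Fhod3, a formin that assembles sarcomeric actin, rose 5.65-fold (adjusted p = 0.0284) and Klhl11, a substrate adaptor of a ubiquitin ligase, 3.34-fold (adjusted p = 0.0417). Of the 20, 16 were stable, and the calls of Thsd4, Dlk2, Fhod3 and Klhl11 were lost in at least 1 alternative.

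Known steroid targets served as a reference for these sizes. Igf1, the growth factor, read 25124, 32445 and 31938 in vehicle and 86078, 96632, 81278 and 97449 in NARA, Fst, the follistatin gene, 535, 665 and 788 and 2849, 3913, 2672 and 3049, and Fkbp5, a cochaperone of steroid receptors, 841, 712 and 722 and 3155, 2557, 2537 and 2856. Their 4 other probe sets that were tested all passed higher too. Tsc22d3, the leucine zipper protein GILZ, rose 2.02-fold.

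The 20 genes with the greatest fall were of several kinds. Cxcr4, the receptor of a chemokine that guides satellite cells, gave 5117, 4462 and 5191 in vehicle and 475, 756, 788 and 341 in NARA, 8.13-fold lower. Its other probe sets, at -3.10 and -3.40, passed too. Ptgs2, the inducible cyclooxygenase, gave 4758, 4158 and 4837 and 986, 1025, 647 and 913 (4.97-fold lower), and Tmem26, a membrane protein used as a marker of beige fat cells, 924, 868 and 1046 and 62.3, 192, 148 and 236, so that its NARA arrays ended below the minimum. In each of the 3, as in all called genes, the groups did not overlap. Gjb2, the gap junction protein connexin 26, fell from 3668, 2915 and 4165 to 909, 1008, 1027 and 1182, and Disp1, which releases hedgehog proteins from the cells that make them, from 1469, 1928 and 1488 to 545, 744, 733 and 438.

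Transcription factors and secreted proteins also fell. Osr2, a zinc finger factor of limb and palate mesenchyme, gave 1817, 1812 and 1917 in vehicle and 625, 465, 613 and 692 in NARA, with little scatter in either group (2.95-fold lower, adjusted p = 0.000159). Egr2, an early growth response factor, gave 4805, 5217 and 6348 and 1187, 1659, 1561 and 1746 (3.48-fold lower). Grem1, a secreted BMP antagonist, was bright in both groups, at 28499, 33085 and 27909 and 10246, 13472, 11630 and 11449 (2.55-fold lower). Mlana, known as a melanosome protein, was also bright, at 21710, 28416 and 27694 and 9981, 8173, 12544 and 13503, and fell 2.37-fold (adjusted p = 0.0126). Further lower genes were Wfdc18, a secreted protease inhibitor-like protein (2.89-fold), Mettl7a, a methyltransferase of lipid droplets (2.8-fold), Olfml2a (2.35-fold), Masp1, a protease that starts the lectin pathway of complement (2.29-fold), and the phospholipid scramblase Plscr1 (2.25-fold). Of the 20, 15 were stable; the calls of Scn7a, Pex6, Adh7, Mlana and Lnx1 were lost in at least 1 alternative, and Pex6, a peroxisomal ATPase at 519, 656 and 374 and 65.7, 279, 103 and 178, passed in 2 of 14. Of the 9 other probe sets tested for these 40 genes, 9 had the same sign and 5 passed.

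**Figure D2:**
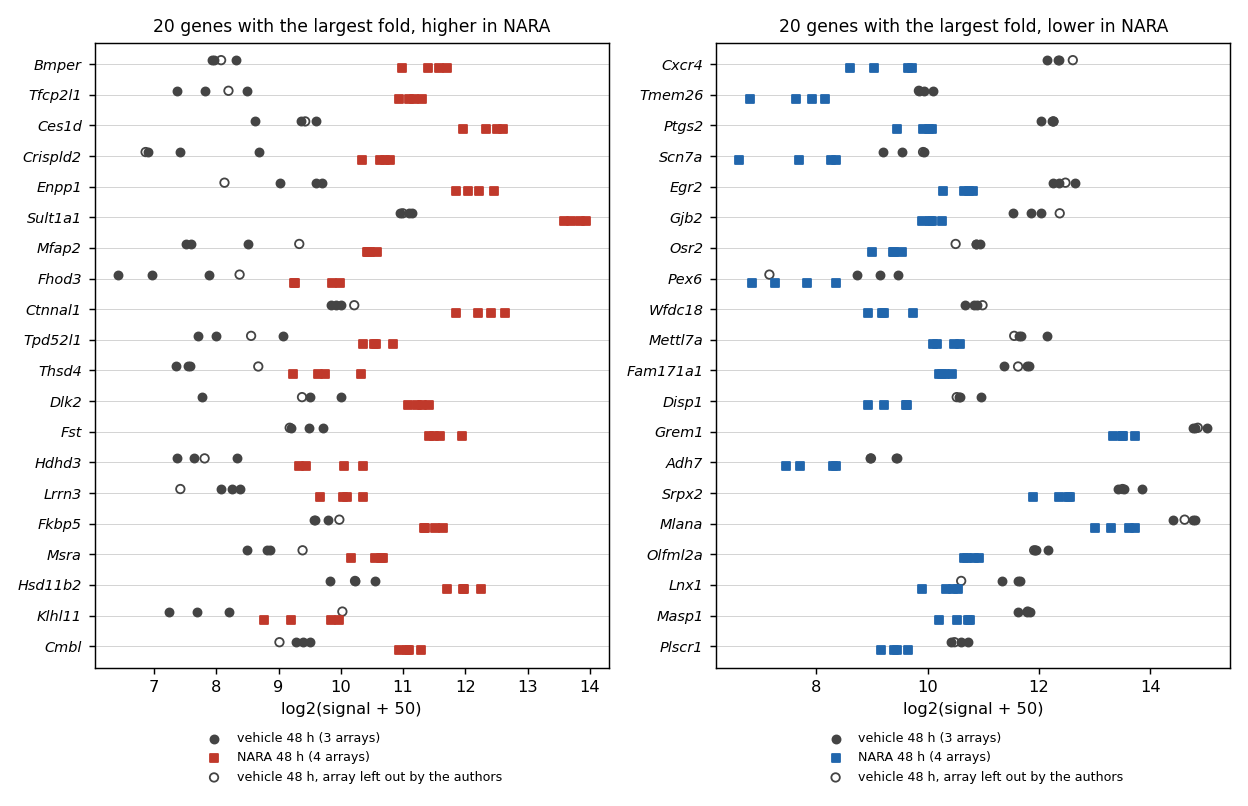
Signals of the 20 genes with the largest fold higher (left) and lower (right) in NARA, as log2(signal + 50) of each array. Filled circles are the 3 vehicle arrays, squares the 4 NARA arrays and open circles the vehicle array that the authors left out of analysis. That array lay nearer the vehicle mean than the NARA mean for 16 of the 20 higher and 18 of the 20 lower genes. The naming rule took only genes without overlap, so filled circles and squares overlap in none of the 40.

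Gene groups were described by how many of their measured genes passed, beside the 3.19% of all genes. Of 88 lists, by function or by gene symbol, 31 had at least 3 genes past the threshold, 37 had 1 or 2 and 20 had 0. Among the 31, 7 had only higher genes, 3 only lower genes and 21 both. A share below that of all genes was found in 3: ion channels, ubiquitin conjugation and removal, and transmembrane proteins of unassigned function. Of the 360 called genes, 181 were in no list. No list was tested as a set.

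**Figure D3:**
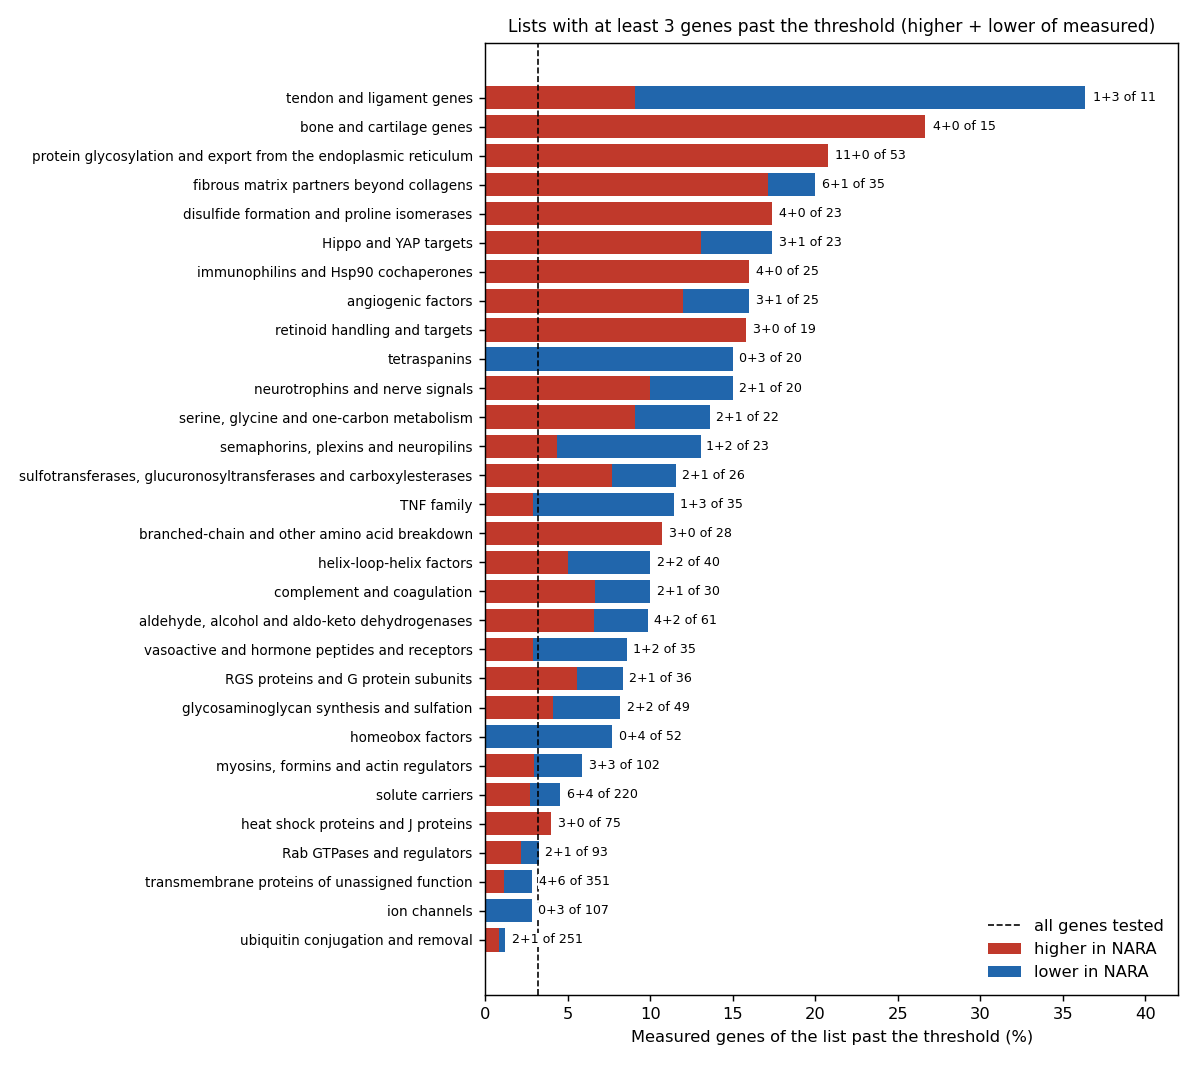
Percent of the measured genes of each list that passed higher (red) or lower (blue) in NARA, for 30 of the 31 lists with at least 3 such genes; the dashed line is the 3.19% of all genes tested. The longest bars are of tendon and ligament genes (1 higher and 3 lower of 11), bone and cartilage genes (4 of 15, all higher) and endoplasmic reticulum glycosylation and export (11 of 53, all higher).

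The list with the most called genes was that of protein glycosylation in and export from the endoplasmic reticulum, the compartment through which secreted and membrane proteins pass. Of its 53 measured genes 11 rose and 0 fell (20.8%), and 47 had a positive difference, against 49.4% of all genes. The list's median was 0.25 on the log2 scale, against -0.0035 over all genes. The rises were small and covered successive steps of the route. Ssr1 and Ssr2, subunits of the complex that assists translocation, went from 11110, 12236 and 11493 to 16255, 18152, 19897 and 18390 and from 14556, 14449 and 13264 to 19220, 20025, 20899 and 20098. As in all called genes no array of the groups overlapped, and the changes were 1.56-fold and 1.42-fold (adjusted p = 0.00527 and 0.017). Sec11c, a catalytic subunit of signal peptidase, rose 1.54-fold and Ostc, a subunit of the oligosaccharyltransferase that attaches N-glycans, 1.44-fold, as did Rpn2 of the same enzyme, by 0.49 log2, and Spcs1 of signal peptidase, by 0.39. Sec24d and Sec13, coat proteins of the vesicles that leave the compartment, rose by 0.48 and 0.56, and Tmed3, a cargo receptor, by 0.43. Cope, of the coat that returns vesicles from the Golgi, rose by 0.43, and Creb3l1, a membrane-bound transcription factor that drives secretory genes, by 0.71. The median stayed between 0.21 and 0.26 in every alternative, but the count did not: 0 of the 53 genes passed limma's adjusted p with only the 48 h arrays, where 20 had an unadjusted p below 0.05 (37.7%, against 13.9% of all genes), and 2 to 8 passed when 1 array was left out.

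**Figure D4:**
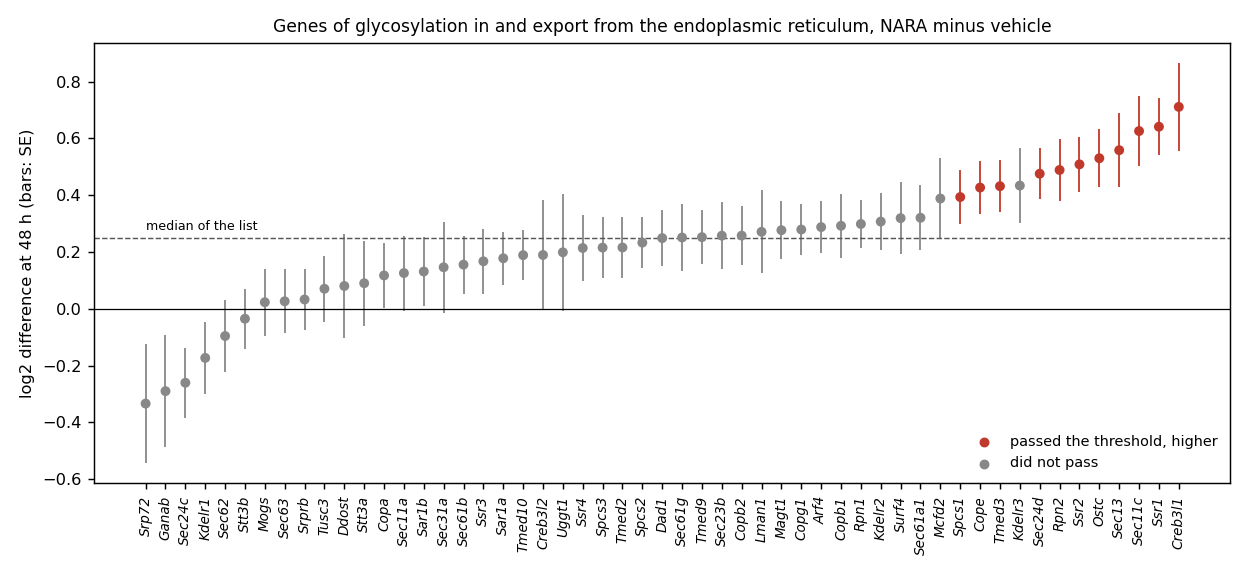
Log2 differences (NARA minus vehicle at 48 h) of the 53 measured genes of endoplasmic reticulum glycosylation and export, ordered by size, with bars of 1 SE; red marks the 11 that passed. 47 of the 53 lie above 0 and the dashed line is their median, 0.25.

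Genes of folding enzymes in the same compartment were higher where they changed. Of 23 genes of disulfide formation and proline isomerization 4 rose and 0 fell (17.4%), with a median of 0.28 and 19 positive. Fkbp14, a prolyl isomerase that helps collagen fold, gave 7642, 8221 and 8001 in vehicle and 11558, 12227, 11779 and 13548 in NARA, 1.54-fold higher. Fkbp11, another secretory isomerase, rose 1.63-fold, Erp29, a disulfide isomerase relative, 1.46-fold, and Fkbp10, a collagen chaperone, 1.43-fold (adjusted p = 0.0484). Fkbp10, Fkbp11 and Fkbp14 with Fkbp5 made up the 4 of 25 immunophilins and Hsp90 cochaperones that rose. Of 75 heat shock and J proteins, not all of this compartment, 3 rose (4.0%, near the 3.19% of all genes), and the median was 0.059. Hspa5, the chaperone of the endoplasmic reticulum, went from 27852, 31494 and 29242 to 47863, 47191, 41378 and 46352. Hspb6, a small heat shock protein of muscle, rose by 0.89 log2, and the cytosolic J protein Dnaja1 by 0.47. None of the 3 was stable, and Hspb6 and Dnaja1 each kept their call in 9 of 17 alternatives. With only the 48 h arrays 0 genes of the disulfide and isomerase list or of the heat shock list passed limma's adjusted p. An unadjusted p below 0.05 was found for 10 of the 23 (43.5%) and 13 of the 75 (17.3%), against 13.9% of all genes. Manf, a secreted protein of the stressed endoplasmic reticulum, rose 1.78-fold and was stable. A further 14 secretory genes that rose were picked out after their values were seen, at log2 differences of 0.40 to 0.72; among them were Rcn3, a calcium-binding protein (0.63), P3h1 and P3h4, which modify collagen prolines and lysines (0.53 and 0.62), Sec22b and Uso1, which dock and tether vesicles (0.47 and 0.51), and Selenos, of protein degradation at the membrane (0.53).

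Short sequence elements were looked for in the promoters of called genes, from 250 bases before to 50 after each start in RefSeq's GRCr8 table. Shares are given over the 9413 tested genes with a promoter and, after them, over all 27457 promoters. The steroid receptor palindrome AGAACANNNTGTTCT was in 0 of 149 promoters of higher genes and 0 of 137 of lower genes, against 0% of tested genes and 0.00728% of all. The looser form GNACANNNTGTNC, searched on both strands like the other elements, was in 1 of the 149 (0.671%) and 0 of the 137, against 0.287% and 0.422%. That promoter belonged to Trim63, the muscle ubiquitin ligase MuRF1, with signals of 2789, 1910 and 1954 in vehicle and 5522, 6562, 5333 and 6426 in NARA (2.68-fold higher, adjusted p = 0.0011). The half-site AGAACA, which the full palindrome contains, was in 11.4% of the higher and 10.9% of the lower genes, against 12.5% and 20.1%. The E box CACGTG was in 6.71% and 7.3%, against 9.38% and 6.65%, and the CCAAT box CCAAT, which the stress element below contains, in 34.9% and 37.2%, against 37.7% in both backgrounds. The endoplasmic reticulum stress element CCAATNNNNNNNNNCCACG was in 1 of 149 higher genes, Hspa5, in 0 of 137 lower genes and in 0 of 46 promoters of the glycosylation and export list, against 0.149% and 0.0765%. The 2 windows are shown 5′ to 3′ on the plus strand because they hold the matches to the looser palindrome and the stress element in rising genes, with the match in capitals, starting 219 bases before the Trim63 start (chr5:151816986-151817089, GRCr8) and 43 bases before the Hspa5 start (chr3:38452913-38453015, GRCr8). A match describes the letters only, not a bound site.
Trim63: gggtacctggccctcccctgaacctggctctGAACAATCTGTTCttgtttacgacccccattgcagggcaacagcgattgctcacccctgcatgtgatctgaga
Hspa5: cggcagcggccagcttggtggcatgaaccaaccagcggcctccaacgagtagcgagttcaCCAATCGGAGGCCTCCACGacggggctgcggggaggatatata

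Fibrous matrix proteins other than collagens made up a list of 35 measured genes, of which 6 rose and 1 fell. The median was 0.078, 19 of the 35 had a positive difference, and the counts shifted with the settings, to 3 higher and 2 lower with only the 48 h arrays and to 6 and 6 with a trended and robust prior. Srpx, a sushi-repeat protein, went from 8930, 9525 and 8061 to 29144, 27346, 28450 and 29183, 3.22-fold (adjusted p = 2.81e-05), while its relative Srpx2, which binds the urokinase receptor, went from 10933, 11758 and 14783 to 3755, 5837, 5202 and 6000, 2.41-fold lower. The paralogs thus moved in opposite directions, and both were stable, as were Crispld2 and Mfap2. Smoc2, a calcium-binding matricellular protein, rose 1.83-fold, Abi3bp, a collagen-binding protein, 1.59-fold and Matn2, a filament-forming matrilin, 1.59-fold; these 3 were not stable.

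Genes of the skeletal lineages were counted by type, and the difference between the lists was not tested. Of 15 bone and cartilage genes measured, 8 had a positive difference and the median was 0.034; 4 rose and 0 fell (26.7%): Enpp1, Matn2, Col11a1, a cartilage fibril collagen that went from 13833, 12240 and 12038 to 26437, 28802, 23670 and 25493, and Tnfrsf11b, the decoy receptor osteoprotegerin, from 781, 934 and 994 to 1604, 1591, 1449 and 1497. As in all called genes their groups did not overlap, and 3 of the 4 were stable, all but Matn2. Of 11 tendon and ligament genes 1 rose and 3 fell (36.4%), 2 had a positive difference, and the median was -0.56. Egr1, with Egr2 an inducer of tendon collagens, went from 18009, 19617 and 19196 to 9282, 12016, 12344 and 13411, and Bgn, a small proteoglycan of tendon, from 31414, 24139 and 22114 to 18679, 15691, 17824 and 17357 (adjusted p = 0.0463). Thbs4, a matricellular protein of tendon attachment, rose 1.49-fold. Only Egr2 of these 4 was stable; with only the 48 h arrays it alone passed. Of the 20 fibroblast markers 3 fell and 0 rose: Lum, a collagen-binding proteoglycan (2.08-fold lower), Loxl1, an elastin crosslinker (1.92-fold lower), and Pdgfra, the PDGF receptor alpha (1.68-fold lower), of which Lum was stable. The summed signal of 8 Schwann cell and nerve markers lay outside the range of vehicle, at 2653 to 4643 against 6492 to 9334. Egr2, the brightest of them, averaged 5457 in vehicle and 1538 in NARA, and Sox10 and Ngfr lay below the minimum.

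Sugar-polymer genes moved in both directions. Of 49 genes of glycosaminoglycan synthesis and sulfation 2 rose and 2 fell (8.16%). Cemip, which degrades hyaluronan, went from 1145, 1093 and 1348 to 4000, 4992, 3727 and 3378, 3.25-fold, and was stable. Chsy1, a chondroitin synthase, rose 1.61-fold, and the cell-surface proteoglycans Gpc6 and Sdc4 fell 1.73-fold and 1.65-fold. Ugdh, which makes the glucuronic acid donor of these chains, rose 1.67-fold (stable), and Tnfaip6, which links hyaluronan to other proteins, fell 1.75-fold, though another of its probe sets lay on the other side of 0. B4galt5 and Gcnt2, glycosyltransferases, both fell, by 0.77 and 0.62 on the log2 scale. They were 2 of 69 in their family (2.9%, below the 3.19% of all genes).

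Growth and positional signals changed gene by gene. Of 23 Hippo and YAP targets 3 rose and 1 fell (17.4%): Tgfb2, a TGF-beta ligand, from 3634, 3963 and 3915 to 9940, 9904, 10790 and 8420, Ccn2, connective tissue growth factor, from 4905, 4966 and 4205 to 9162, 9975, 9108 and 9579, Nt5e, which makes adenosine (2.14-fold), and, lower, Ajuba, a scaffold of the pathway (1.5-fold). Tgfb2 and Ccn2 were stable, and the list's median was -0.074, on the other side of 0 from its 3 rises. Of 25 angiogenic factors Ptn, pleiotrophin, Thbs2, an inhibitor of vessel growth, and Sema3e rose, by 0.71, 0.70 and 0.65, and Kitlg, stem cell factor, fell by 0.76; none of the 4 was stable. Of 20 genes of neurotrophins and nerve signals Manf and Ptn rose and Ndnf, a secreted neurotrophic protein, fell from 4161, 5352 and 6202 to 2281, 2129, 2300 and 2475.

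Lists of guidance and adhesion genes differed in direction. Sema3c and Sema6a fell by 0.72 and 0.68, against the rise of Sema3e, of 23 semaphorins, plexins and neuropilins. Of 9 ephrins and Eph receptors Epha3 and Ephb4 fell, by 0.90 and 0.74, and the list's median was -0.37. Of 22 cadherins Cdh11, of mesenchymal cells, went from 8347, 8525 and 8178 to 4246, 3983, 3836 and 4182, 2.04-fold lower and stable, and Cdh2, N-cadherin of myoblasts, fell 1.8-fold. Another, dimmer probe set of Cdh11 lay at 0.22 (adjusted p = 0.799). All 3 of 20 tetraspanins that passed, membrane organizers, were lower: Tspan6, from 28543, 29743 and 31525 to 17274, 17465, 17587 and 18087, Tspan7 by 0.61 and Cd82 by 0.56. As in all called genes their groups did not overlap, and Tspan6 was stable. Higher were Itgb3, an integrin subunit, 1 of 20 integrins (2.11-fold), and Lrrn3, 1 of 38 adhesion molecules of the immunoglobulin type. These shares were 5.0% and 2.63%, against 3.19% of all genes. Of 17 claudins and connexins Gjc1, connexin 45, rose 1.6-fold and Gjb2 fell; Itgb3 and Gjc1 were not stable.

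Among transcription factors, homeobox genes that passed were all lower, while helix-loop-helix genes passed in both directions. Of 52 homeobox factors 0 rose and 4 fell (7.69%). Msx2, a BMP-responsive factor of bone and limb, gave 1614, 1385 and 1200 in vehicle and 813, 706, 860.1 and 659 in NARA, and Prrx1, a factor of limb mesenchyme, 16729, 16711 and 19069 and 10964, 10072, 9453 and 12803. Irx3 fell by 0.65 and Meis2 by 0.53 (adjusted p = 0.0239 and 0.0301). As in all called genes the groups did not overlap, but none of the 4 was stable. With only the 48 h arrays 0 of the 52 passed limma's adjusted p, and 13 had an unadjusted p below 0.05 (25%, against 13.9% of all genes). Of 40 helix-loop-helix factors Id2, an inhibitor of differentiation factors, and Hes1, a Notch target, rose by 1.08 and 0.48, and Ahrr, the repressor of the dioxin receptor, and Mitf, the melanocyte regulator, fell by 0.64 and 0.72. Mitf is known to activate Mlana, which fell by 1.24, but a link between these falls was not tested. Neither was stable, and Mitf kept its call in 10 of 17 alternatives. Of the other helix-loop-helix genes, Id2 kept its call in 10, Hes1 in 7 and Ahrr in 16 of 17. Other probe sets of Id2 and Mitf lay at 0.26 and -0.71, and neither passed.

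G protein and vasoactive signalling had stable single members. Rgs2 and Rgs17, which switch off G protein signals, rose from 856, 918 and 1188 to 2970, 3047, 2831 and 3370 and from 1369, 1191 and 1056 to 3080, 4802, 3137 and 3188, while Rgs10 fell by 0.58, of 36 genes. Rgs17 replicate 2 stood above the other NARA arrays, and all 4 lay above vehicle. Of 35 vasoactive and hormone genes Ramp2, a partner of the adrenomedullin receptor, rose 2.42-fold, and S1pr2, a sphingosine phosphate receptor, and Ghr, the growth hormone receptor, fell 1.67-fold and 2.17-fold. Ramp2 and S1pr2 were stable. The TNF family had 1 higher gene, Tnfrsf11b, and 3 lower of 35 (11.4%): Tnfaip6, Tnfrsf12a, the TWEAK receptor of muscle (1.69-fold), and Traf5 (1.64-fold). Of 30 complement and coagulation genes Thbd, thrombomodulin, and Cd55, which protects cells from complement, rose 2.47-fold and 1.94-fold and Masp1 fell, and all 3 were stable. Ptpn11, the phosphatase SHP2, rose 1.81-fold, Rasa1, a Ras inactivator, fell 1.94-fold and Socs5, a suppressor of cytokine signalling, fell 1.87-fold from 15286, 15481 and 15723 to 8014, 8743, 8349 and 8032; these 3 were stable too.

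Enzyme families of steroid, retinoid and aldehyde metabolism showed a few strong changes. Of 61 dehydrogenases 4 rose and 2 fell (9.84%): Dhrs3, which reduces retinal to retinol, from 619.7, 734 and 509 to 2035, 2119, 2282 and 1953, with Hsd11b2, Aldh1l2, a mitochondrial folate enzyme (1.55-fold), and Dhrs13 (1.58-fold), and, lower, Adh7, which oxidizes retinol, from 645, 649 and 452 to 264, 276, 159 and 126, and Hsd3b7, of bile acid synthesis (1.57-fold). Of 19 genes of retinoid handling Dhrs3, Crabp2, the carrier of retinoic acid into the nucleus, and Tgm2, a transglutaminase induced by it, rose and 0 fell (15.8%). Crabp2 gave 23392, 24171 and 22727 in vehicle and 42242, 42564, 39407 and 42259 in NARA. Dhrs3, Hsd11b2 and Crabp2 were stable. Beside Sult1a1 and Ces1d, Fmo4, a flavin monooxygenase, changed among 26 genes of conjugation and ester cleavage, 2.08-fold lower.

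Amino acid and transport genes changed in small numbers. Of 28 genes of amino acid breakdown 3 rose and 0 fell (10.7%). Glul, glutamine synthetase, went from 5517, 5812 and 4328 to 9796, 9410, 9522 and 9743, Gpt2, the mitochondrial alanine aminotransferase, from 1576, 1817 and 1400 to 3263, 2858, 3934 and 3195, and Bcat1, which transfers the amino group of branched-chain amino acids, rose 1.55-fold. Glul and Gpt2 were stable. Of 22 genes of serine, glycine and one-carbon metabolism Aldh1l2 and Psat1, of serine synthesis, rose by 0.63 and 0.53 and Mthfd1l fell by 0.74. Of 220 solute carriers 6 rose and 4 fell (4.55%). The highest were Slc5a7, the choline transporter (2.97-fold), Slc8a1, the sodium-calcium exchanger (2.76-fold), Slc12a2, the sodium-potassium-chloride cotransporter (2.00-fold), and Slc7a6, of basic amino acids (1.88-fold), all stable. Slc6a6, the taurine transporter, fell 1.92-fold and Slc2a3, a glucose transporter, 1.59-fold. Of 17 iron genes the metalloreductases Steap1 and Steap2 rose, from 2670, 2703 and 2795 to 4767, 4653, 4037 and 3759 and from 4354, 4771 and 5151 to 8628, 7596, 7300 and 10015. Of 107 ion channel genes 3 passed (2.8%, below the 3.19% of all genes), all lower and none stable. They were Scn7a, a sodium-sensing channel, at 535, 694 and 923 and 277, 259, 156 and 48.5, Kcns3, a modifier of potassium channels (2.05-fold), and Kcnn4, a calcium-activated potassium channel (1.88-fold).

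Contractile and trafficking genes showed no common direction. Of 102 myosins, formins and actin regulators 3 rose and 3 fell (5.88%): Svil, supervillin, from 11716, 12223 and 10950 to 17285, 17895, 16834 and 19569, Pdlim2 by 0.54 and Fhod3, and, lower, Synpo, synaptopodin, by 0.91, Pdlim1 by 0.76 and Tpm1, a tropomyosin, by 0.58. None of the 6 was stable. Other probe sets of Synpo lay at -0.43 and 0.084, and neither passed. Those of Tpm1 lay at -0.89, which passed, and at -0.19 and 0.16, which did not. Of 93 Rab genes Sytl2, a granule effector, rose 1.83-fold (stable), Tbc1d8b 1.47-fold, and Rab3d fell 1.67-fold (3.23%, near the 3.19% of all genes). Of 251 genes of ubiquitin conjugation and removal 2 rose, Trim63 and Klhl11, and Rnf144b fell (1.2%, below the share of all genes). Of 351 transmembrane proteins of unassigned function 4 rose, led by Tmem97, which binds sterols (2.09-fold), and Tmem100 (2.15-fold), and 6 fell, led by Tmem26 and Fam171a1 (2.57-fold). Their share of 2.85% was also below that of all genes. Another probe set of Fam171a1 lay at -0.12, with overlapping arrays, and did not pass.

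In the 37 lists with 1 or 2 called genes, 22 entries were higher and 34 lower. Stable examples not yet given were Boc, a hedgehog coreceptor that promotes muscle differentiation (1.96-fold higher), Sgk1, a steroid-induced kinase (1.75-fold higher), Col4a5, a basement membrane collagen (1.89-fold higher), Zfp385b (3.24-fold higher), Il33, an alarm cytokine (2.17-fold lower), Rcan2, a calcineurin inhibitor (2.07-fold lower), Itpr1, a calcium release channel (1.72-fold lower), and Serpinb1a, a protease inhibitor (2.11-fold lower). The 20 lists with 0 called genes held 607 measured entries, among them 128 chromatin modifiers, 72 phosphoinositide kinases and phosphatases, 43 cytosolic ribosomal proteins, 33 cytochromes P450, 30 genes of PPAR and mitochondrial biogenesis, 26 apoptosis regulators, 20 adipogenic genes and 19 NRF2 targets; a gene that did not pass was not shown to be unaffected.

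Called genes outside the lists and the naming rule, picked out after their values were seen, included Lmo4, a transcriptional cofactor (1.60), Sphk1, which makes sphingosine phosphate (1.51), the paired poly(A) polymerases Tent5a and Tent5b (1.26 and 1.65), Fgfr2 and its ligand Fgf7 (1.05 and 0.97), and Penk, the enkephalin precursor (0.93). Lower ones included the surface peptidases Enpep and Anpep (-0.97 and -0.74), Sms, spermine synthase (-0.97), Cxcl12, the ligand of Cxcr4 (-0.79), and Sting1, of cytosolic DNA sensing (-0.83). A further 102 called probe sets, 52 higher and 50 lower, had no symbol in the annotation used here.

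Neighbouring genes changed together in a few places. Among 11260 tested genes ordered along the GRCr8 chromosomes, 21 pairs of successive genes were both called, 13 in the same direction. The next gene was also higher for 8 of 192 higher genes (4.17%, against 1.7% of all) and also lower for 5 of 166 lower genes (3.01%, against 1.49%). Pairs with 0 annotated genes between them were Enpp1 with Ccn2 (2.70 and 1.01), Steap1 with Steap2 (0.64 and 0.80), P3h4 with Fkbp10 (0.62 and 0.52), Selenos with Chsy1 (0.53 and 0.68), Smim14 with Ugdh (0.45 and 0.74) and, both lower, Tspan6 with Srpx2 (-0.76 and -1.27) and Ptgs2os, an opposite-strand gene, with Ptgs2 (-1.06 and -2.31). Cdk17 and Elk3, also without a gene between them, differed in sign (0.54 and -0.52). Elk3 kept its call in 8 of 17 alternatives, and its other probe sets, at -0.18, -0.13 and 0.66, did not pass. Smoc2 and Thbs2 had 1 gene between them.

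The 4 h arrays and the vehicle array left out gave values that had no part in the 48 h difference, although the 4 h arrays entered the estimate of spread. At 4 h, with 2 NARA and 4 vehicle arrays, 0 probe sets passed limma's adjusted p (1029, or 4.91%, had an unadjusted p below 0.05), and of the 586 called at 48 h 454 (77.5%) had the same sign, against 52.7% of all probe sets tested. Sizes were smaller, with medians of 0.14 for the higher and -0.12 for the lower ones at 4 h against 0.80 and -0.76 at 48 h. Hdhd3 stood at 2.35 at 4 h and 2.01 at 48 h, Tfcp2l1 at 2.15 and 3.24, and Cmbl at 1.11 and 1.71, while Srpx stood at 0.059 and 1.69 and Grem1 at -0.10 and -1.35. The left-out vehicle array lay nearer the vehicle mean than the NARA mean for 505 of the 586 (86.2%), against 53% of all. Its correlations with the 7 arrays were 0.916 to 0.935. Exceptions among the 20 highest and 20 lowest genes were Mfap2, Klhl11, Fhod3, Thsd4, Pex6 and Lnx1, in which this vehicle array lay nearer the NARA mean.

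**Figure D5:**
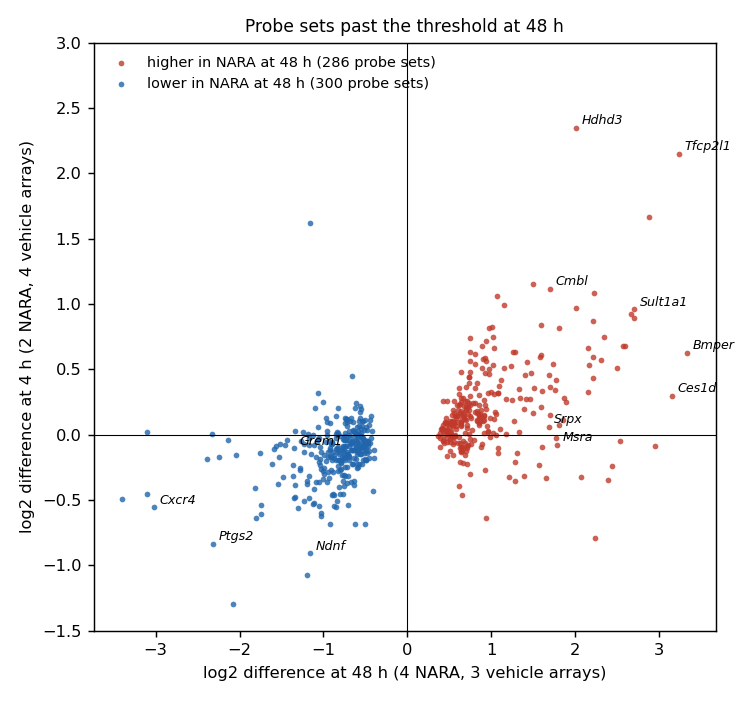
Log2 difference at 48 h (x axis) and at 4 h (y axis) of the 586 probe sets called at 48 h, red for 286 higher and blue for 300 lower. Both times used separate arrays, and 454 of the 586 lie on the same side of 0 at both, with most 4 h values much closer to 0.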

How the data were processed

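Total RNA was labelled with biotin and hybridised to Affymetrix Rat Genome 230 2.0 arrays, 1 array per sample, per the labels' protocols. The deposited values are linear MAS5 intensities (MAS5 per the submitters' processing notes), which the authors scaled to a trimmed mean of 1500, per the series' design text. The labels' protocols name Trizol for extraction and the design text a column kit, and nothing read here settles which was used. Detection calls were not used here.

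The authors left 3 arrays out, per the design text, and these were left out here. Of 31099 probe sets, 57 controls were set aside and 20971 that averaged 300 or more on the 7 arrays of the comparison were tested; of these 15459 had 1 gene symbol in the platform annotation, 344 several and 5168 none, and 11265 of the 11302 genes matched the RefSeq table by identifier. A model of 4 group means over 13 arrays was fitted to log2(signal + 50) in R 4.3.3 with lmFit and eBayes of limma 3.58.1, leaving 9 residual degrees of freedom, with a two-sided test and Benjamini-Hochberg adjustment over all probe sets tested. Vehicle 48 h had 3 arrays, NARA 48 h 4, vehicle 4 h 4 and NARA 4 h 2. The statistics were tested on simulated data.

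Genes were named by rule: the 20 higher and 20 lower with the largest fold among called genes without overlap between groups, up to 6 called genes by p of each list with at least 3, up to 2 of other lists, 6 known steroid or chemokine-related genes, and other probe sets of the first 40. The members and lists were chosen with earlier results of these data known. Alternatives are given in the closing section. The result of 1 list is not reported here.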

Additional observations from a re-analysis of the deposited data

Results flagged for a closer look

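The 13 genes below had an effect at 48 h that differed from the effect at 4 h in the model's test of that difference (limma, adjusted over all probe sets tested), which 27 probe sets passed. Values are log2 effects at 48 h minus those at 4 h, and the 4 h effects rest on 2 NARA and 4 vehicle arrays. Among genes higher at 48 h the difference was 2.86 for Ces1d (adjusted p = 0.0266), 1.86 for Msra (0.0215), 1.74 for Sult1a1 (0.0215), 1.73 for Lrrn3 (0.0189), 1.63 for Srpx (0.00975), 1.44 for Thbd (0.038) and 1.27 for Igf1 (0.0215). Among genes lower at 48 h it was -1.48 for Ptgs2 (adjusted p = 0.0266), -1.47 for Osr2 (0.0257), -1.25 for Grem1 (0.0189), -1.16 for Olfml2a (0.0439), -1.11 for Tk2, the mitochondrial thymidine kinase, which stood at 0.45 at 4 h (0.0272), and -1.03 for Lum (0.0272).

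In 13 of the 193 named genes 1 of the 4 NARA arrays stood apart from the other 3 by Dixon's ratio, above its 95% critical value for 4 values; chance alone gives this in about 1 in 20 groups, and the vehicle group of 3 was not tested. Replicate 3 was the low array for Arhgap6 (signal 1390, the others 1558 to 1582), Crabp2 (39410, the others 42240 to 42560), Runx1t1, a transcriptional corepressor (311.6, the others 582.1 to 629.7), Sec11c (2962, the others 3463 to 3561) and Sema6a (738.1, the others 960.7 to 1010), and the high array for Gbp2, an interferon-induced GTPase (3833, the others 2727 to 2849), and Sema3c (10590, the others 9008 to 9194). Replicate 2 was the low array for Hsd3b7 (2331, the others 3375 to 3617) and the high array for Rgs17 (4802, the others 3080 to 3189), Slc6a6 (1634, the others 1097 to 1166) and Tmem97 (11000, the others 8449 to 8821). Replicate 4 was high for Fkbp10 (25720, the others 23050 to 23310) and replicate 1 for Slc7a6 (3482, the others 3114 to 3164).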

How the results depend on the processing

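The 193 named genes kept their direction in every alternative tested, 102 kept their call whenever 1 array was left out, and 74 kept it in every alternative. The count of 586 probe sets (286 higher, 300 lower) stayed within 1.5 times with offsets of 1 and 200 (568 and 618), quantile scaling (643), median scaling (531) and vehicle replicate 1 put back (775). It was 218 (129 higher, 89 lower) with only the 48 h arrays, 209 of them among the 586, so that 59.2% were higher in place of 48.8%. It was 355 (194 and 161) with no signal minimum, 1063 (494 and 569) at a minimum of 1000 and 1099 (510 and 589) when the prior was trended and robust. Leaving 1 array out gave 310 to 489 (178 to 260 higher, 132 to 252 lower), and 2 arrays moved it by over 1.5 times, vehicle 48 h replicate 3 (310) and replicate 2 (322). The share with the same sign at 4 h, 77.5%, was 81.4% with no minimum, 71.9% at 1000, 72.7% with the trended prior and 75.9% to 83.5% without 1 array. The share with the left-out array nearer vehicle, 86.2%, was 90.8% with only the 48 h arrays, 91.5%, 78.7% and 80.2% under the same 3 settings and 79.1% to 91.9% without 1 array. In each case the cause was not tested. Same-numbered arrays correlated at -0.016, -0.028 and 0.031 in their deviations from the group means. So few arrays cannot settle whether replicate numbers paired the samples, and the main fit used no pairing. With the replicate number as a block 311 probe sets passed (165 higher, 146 lower), the shares were 82.6% and 89.4%, and 121 of the 193 named genes kept their call. With 3 and 4 arrays, differences that did not pass may be real.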
